A study of Mus musculus with 12 samples.

Results

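Transcription factors of lateral mesoderm and heart were followed through the differentiation of mouse embryonic stem cells (mESCs) into embryoid bodies. The 8 genes were taken by symbol from the count table of the series, as regulators known from lateral plate and heart development: Gata5, Hand1, Hand2, Isl1, Tbx5, Tbx20, Nkx2-5 and Mef2c. They are 8 of 24495 genes in the table. RNA-seq of polyA RNA was collected from CCE-Nanog-GFP mESCs carrying a scrambled control shRNA (shSC) or an shRNA against cathepsin L (shCTSL). Both lines were sampled undifferentiated (Day 0) and as embryoid bodies at Day 2 and Day 4, with 2 libraries in each of the 6 groups. The embryoid bodies grew without LIF and with all-trans retinoic acid. GFP-positive cells were sorted before the experiments, and 1 shCTSL line was sequenced, so an effect of the knockdown cannot be told apart from other differences between the lines. The libraries are described as 2 biological replicates per group. Nothing in the labels says how separate they are, and the p-values measure the spread between these libraries.

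Total counts were 15510058 and 19344654 at Day 0, 27155553 and 20783323 at Day 2 and 21885578 and 13434182 at Day 4 in shSC. In shCTSL they were 15627577 and 11171111 at Day 0, 15415364 and 21213919 at Day 2 and 16815622 and 18246185 at Day 4. Levels are given as CPM, counts scaled by library total and TMM factor. The 2 shCTSL Day 2 libraries stood apart from each other. The log2 ratio of replicates over the genes tested had an SD of 0.604 in that group, against 0.178 to 0.269 in the other 5. The calls of the 8 genes that rest on this group, and the Day 2 calls between lines, are therefore also given with 1 of these libraries left out. A gene was called when the adjusted p of edgeR's quasi-likelihood test was under 0.05 and the fold change at least 1.5. Over the 12 libraries 15532 genes passed the count filter, and all 8 transcription factors were among them. Of these, Gata5, Hand2, Tbx5 and Mef2c reached the filter's level of 0.57 CPM, taken over library totals without TMM factors, in 0 of 4 Day 0 libraries and Isl1 in 1. They passed through the later days and had to differ from Day 0, so their counts of calls over days are a description only.

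These factors act as a network in the embryo. GATA, T-box and NK2 proteins bind DNA together and share targets, Hand and Mef2 proteins act with them, and the lateral plate uses several of them outside the heart, in limb bud, body wall, endothelium and extraembryonic mesoderm. Retinoic acid is a known patterning signal of the posterior lateral plate. In RNA from whole cultures, fewer cells of a type and less RNA per cell cannot be told apart.

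Ctsl, the gene targeted by the shRNA, checks the labels of the libraries. In shSC it was at 137 and 147 CPM at Day 0, 369 and 391 at Day 2 and 483 and 423 at Day 4. In shCTSL it was at 39.2 and 37.5 CPM at Day 0, 210 and 155 at Day 2 and 257 and 252 at Day 4. On each day the pair of shCTSL values was the lower, with no overlap. The log2 fold change of shCTSL against shSC was -1.89 ± 0.15 (SE) at Day 0, -1.06 ± 0.14 at Day 2 and -0.83 ± 0.14 at Day 4, with adjusted p of 0.00246, 0.0342 and 0.0896, and the Day 4 value was not called. Without both shCTSL Day 2 libraries the Day 4 value was -0.82 and called (adjusted p = 1.88e-05). With 1 of these libraries left out, Ctsl was called at Day 2, at -1.28 without replicate 1 and -0.86 without replicate 2 (adjusted p of 4.24e-06 and 2.23e-06).

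Gata5, a zinc finger factor of endocardium and foregut endoderm, lies on the minus strand of chromosome 2 (180059838 to 180069404, mm9). In shSC it was read 2 and 1 times at Day 0, and stood at 4.65 and 4.51 CPM at Day 2 and 33.5 and 41.9 CPM at Day 4. In shCTSL it was read 0 and 1 times at Day 0, and stood at 3.94 and 4.47 CPM at Day 2 and 39.2 and 36.8 CPM at Day 4. In both lines every later day lay above every earlier one, and the 2 lines overlapped at Day 4. Scaled by library total and TMM factor, the summed counts rose 44.7-fold from Day 0 to Day 2 in shSC (95% counting interval 15.1 to 218). From Day 2 to Day 4 they rose 8.03-fold (7 to 9.24). On the same scale, the shCTSL Day 4 sum was 8.93-fold the Day 2 sum (7.61 to 10.5). A single count at Day 0 gave a scaled ratio of 97.3 for Day 2 in shCTSL, with an interval of 17.2 to 3867. These intervals cover counting error only. A predicted gene, Gm14318, overlaps exons of Gata5 on the opposite strand, and its reads cannot be told apart from those of Gata5 because no source used here gives the strand setting of the counting.

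Hand1 and Hand2 are basic helix-loop-helix factors, Hand1 of extraembryonic and lateral mesoderm and the outer heart curvature, Hand2 of the right ventricle, limb bud and branchial arches. Hand1 (chromosome 11, 57642207 to 57646320, minus strand) was at 1.22 and 0.743 CPM at Day 0, 0.995 and 0.481 at Day 2 and 8.79 and 8.18 at Day 4 in shSC. In shCTSL it was at 0.373 and 0.737 CPM at Day 0, 0.431 and 0.894 at Day 2 and 13.3 and 12.3 at Day 4. Day 0 and Day 2 overlapped in both lines and Day 4 stood above both. The log2 fold change of Day 4 against Day 2 was 3.47 ± 0.33 (shSC, adjusted p = 5.37e-05) and 4.19 ± 0.35 (shCTSL, adjusted p = 2.55e-05), while Day 2 against Day 0 gave -0.34 ± 0.44 and 0.39 ± 0.56 (adjusted p of 0.525 and 0.565).

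Hand2 (chromosome 8, 59799780 to 59803314, plus strand) had another course. It was read 2 and 1 times at Day 0 in each line, then stood at 10.7 and 7.39 CPM at Day 2 and 21.8 and 30.3 at Day 4 in shSC. In shCTSL it stood at 12.7 and 10.5 CPM at Day 2 and 36.6 and 38.3 at Day 4. The steps did not overlap, and most of the change on a ratio scale fell between Day 0 and Day 2. The ratio of summed counts, scaled by library total and TMM factor, for Day 2 over Day 0 was 90.5 in shSC (counting interval 30.8 to 441). In shCTSL it was 87 (29.6 to 423). From Day 2 to Day 4 the log2 fold change was 1.51 ± 0.21 in shSC (adjusted p = 0.000543) and 1.70 ± 0.21 in shCTSL (adjusted p = 0.000299). At Day 2, when Hand2 was called higher, Hand1 overlapped its Day 0 values in both lines.

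Isl1, a LIM homeodomain factor of second heart field progenitors that also marks motor neurons and hindlimb mesoderm, lies on chromosome 13 (117088478 to 117099896, minus strand). It was at 0.61 and 0.557 CPM at Day 0, 2.09 and 1.71 at Day 2 and 12.5 and 13.8 at Day 4 in shSC. The shCTSL libraries had 1.04 and 0.526 CPM at Day 0, 2.15 and 2.21 at Day 2 and 15.7 and 15.3 at Day 4. Each step was upward with no overlap between days. The log2 fold change was 1.70 ± 0.29 for Day 2 against Day 0 and 2.77 ± 0.19 for Day 4 against Day 2 in shSC, and 1.4 ± 0.29 and 2.83 ± 0.20 in shCTSL (adjusted p of 0.00164 or less in each).

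Tbx5 and Tbx20 are T-box factors, Tbx5 of the first heart field and forelimb bud, Tbx20 of myocardium, endocardium and lateral plate. Tbx5 (chromosome 5, 120284672 to 120335227, plus strand) had 0 counts in both shSC Day 0 libraries and 2 counts in each shCTSL Day 0 library. It stood at 1.46 and 1.18 CPM at Day 2 and 3.53 and 4.99 at Day 4 in shSC, and at 0.554 and 1.06 at Day 2 and 4.06 and 3.69 at Day 4 in shCTSL. Against a floor of 3 counts over the group, the shSC level was at least 13.1-fold higher at Day 2 and at least 40-fold higher at Day 4. The lower limits of the 95% counting intervals of these ratios, which do not use the floor, were 10.4 and 32.1. In shCTSL the ratio to Day 0 was 4.9 at Day 2 (counting interval 1.75 to 19) and 22.1 at Day 4 (8.46 to 82.3). The Day 2 call in shCTSL (adjusted p = 0.0103) did not hold with shCTSL Day 0 replicate 1 left out (0.0871) or shCTSL Day 2 replicate 2 left out (0.0773).

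Tbx20 (chromosome 9, 24527648 to 24578746, minus strand) reached the filter's level in all 4 Day 0 libraries. In shSC it was at 6.4 and 6.13 CPM at Day 0, 4.88 and 4.68 at Day 2 and 13.2 and 16.5 at Day 4. The shCTSL values were 9.69 and 9.37 CPM at Day 0, 3.14 and 6.08 at Day 2 and 24.7 and 18.1 at Day 4. In each line Day 2 lay below Day 0 and Day 4 was highest, with no overlap. Day 2 was called lower than Day 0 in shCTSL (log2 fold change -1.02 ± 0.28, adjusted p = 0.009) and not in shSC (-0.39 ± 0.28, adjusted p = 0.244), and the difference between lines was -0.63 ± 0.39 (adjusted p = 0.538). The shCTSL call was lost when only the libraries compared were fitted (adjusted p = 0.0718). The value moved to -0.61 without shCTSL Day 2 replicate 1 and to -1.6 without replicate 2, and both were called. From Day 2 to Day 4 Tbx20 rose by 1.63 ± 0.26 in shSC and 2.18 ± 0.27 in shCTSL (adjusted p of 0.00124 and 0.000259).

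Nkx2-5, an NK2 homeodomain factor of cardiac progenitors that is also expressed in spleen and pharyngeal endoderm, was the exception in time course. On chromosome 17 (26975609 to 26978510, minus strand), it was at 0.762 and 0.929 CPM at Day 0, 7.6 and 6.13 at Day 2 and 3.58 and 2.63 at Day 4 in shSC. The shCTSL libraries stood at 0.746 and 0.316 CPM at Day 0, 11.9 and 9.02 at Day 2 and 5.14 and 5.26 at Day 4. Day 2 was the highest day in every library of both lines and Day 4 remained above Day 0. The rise to Day 2 was 3.0 ± 0.30 in shSC and 4.19 ± 0.34 in shCTSL on the log2 scale (adjusted p of 1.35e-05 and 2.82e-06). From Day 2 to Day 4 it fell by 1.13 in shSC and by 1.0 in shCTSL (SE 0.24 and 0.23, adjusted p of 0.0059 and 0.00876). In shSC this call ended when Day 2 replicate 1 (adjusted p = 0.06) or Day 4 replicate 2 (0.0508) was left out, and in shCTSL when either Day 4 library was (0.0666 without replicate 1, 0.0562 without replicate 2), at log2 values of -0.96, -0.94, -0.99 and -1.02. Fitted on the compared shCTSL libraries alone, it had an adjusted p of 0.0742.

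Mef2c, a MADS-box factor of heart, skeletal muscle, endothelium and neurons, lies on chromosome 13 (83643033 to 83806684, plus strand). It was read 2 and 3 times at Day 0 in shSC, and stood at 2.59 and 2.93 CPM at Day 2 and 11.3 and 5.06 at Day 4. In shCTSL it was read 3 times in each Day 0 library and stood at 1.23 and 1.91 CPM at Day 2 and 6.44 and 4.23 at Day 4. Days did not overlap in either line, but the shSC Day 4 libraries differed more from each other than those of any other group in this gene. The ratio of Day 4 to Day 0 was 52 in shSC (counting interval 22 to 161) and 20.2 in shCTSL (9.1 to 55.6). Day 4 against Day 2 was called in shSC (log2 fold change 1.6 ± 0.36, adjusted p = 0.00722) and in shCTSL (1.72 ± 0.40, adjusted p = 0.00888). With shSC Day 4 replicate 1 left out the shSC value was 0.88 (adjusted p = 0.105), and with Day 2 replicate 1 left out 1.5 (0.0685), neither of them called. In shCTSL the value of 1.39 with Day 4 replicate 1 left out (0.0759) and that from the compared libraries alone (0.0525) were not called either. The shCTSL rise to Day 2 (adjusted p = 0.00885) ended when shCTSL Day 0 replicate 1 was left out (2.32, adjusted p = 0.0768).

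**Figure D1:**
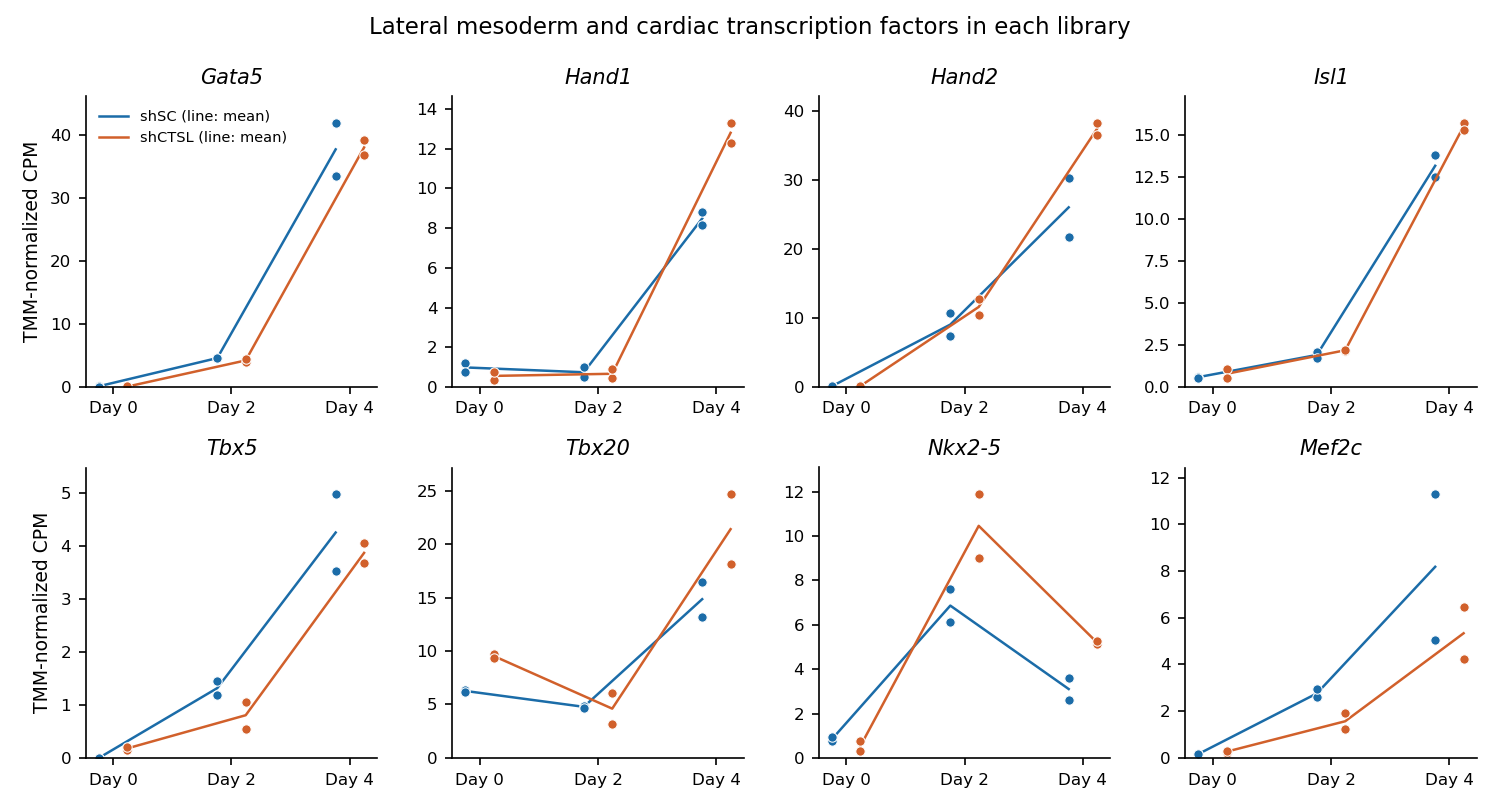
TMM-normalized CPM (vertical axis, from 0, with its own scale in each panel) of the 8 transcription factors by day (horizontal axis), with a point for each library, shSC in blue and shCTSL in orange, and lines through the means of 2 libraries. Nkx2-5 is highest at Day 2, the other 7 are highest at Day 4, and Tbx20 is above 6 CPM at Day 0 in all 4 libraries.

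Counted over the 8 genes, 6 were called higher at Day 2 than at Day 0 in shSC, where 29.3% of all genes tested were, and 6 higher and 1 lower in shCTSL, where 30.9% and 24.6% were. Between Day 2 and Day 4, 7 were called higher and 1 lower in each line, against 11.4% and 12.4% of all genes in shSC and 11% and 12.4% in shCTSL. Between Day 0 and Day 4 all 8 were called higher in both lines, against 32.1% of genes in shSC and 32.3% in shCTSL. With shCTSL Day 2 replicate 1 left out, the shCTSL counts were 6 higher and 1 lower for Day 2, against 31.6% and 24.9% of all genes, and 7 higher and 1 lower for Day 4 against Day 2, against 11.6% and 13.7%. With replicate 2 left out they were 5 higher and 1 lower, against 31.2% and 26.7%, and 7 higher and 1 lower, against 20.5% and 18.8%. The Day 2 against Day 0 log2 fold changes without replicate 1 and without replicate 2 were 6.51 and 6.29 for Gata5, 6.30 and 6.53 for Hand2, 1.45 and 1.38 for Isl1, 4.02 and 4.38 for Nkx2-5, 2.60 and 1.63 for Tbx5 and 2.88 and 2.20 for Mef2c, and all but the 1.63 of Tbx5 were called. For Day 4 against Day 2 they were 3.06 and 3.27 for Gata5, 3.80 and 4.87 for Hand1, 1.81 and 1.56 for Hand2, 2.79 and 2.84 for Isl1, 1.79 and 2.76 for Tbx20, -0.82 and -1.19 for Nkx2-5, 1.44 and 2.10 for Mef2c and 1.83 and 2.79 for Tbx5, whose value from all libraries was 2.19, and all were called. The day comparisons within a line share libraries, and the genes were chosen with earlier results known.

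Levels were compared between genes after division by exonic length (CPM per kb, with lengths from the GENCODE M1 annotation). Reads were counted over RefSeq genes, so these lengths may differ from the regions counted, and the order of genes depends on them. At Day 0 in shSC Tbx20 led with 1.39 CPM per kb, followed by Nkx2-5 (0.555) and Hand1 (0.491), whose libraries overlapped, and Isl1 (0.231). At Day 2 Nkx2-5 (4.5) and Hand2 (4.05) were highest and overlapped, ahead of Gata5 (1.4) and Tbx20 (1.06). At Day 4 Hand2 (11.6) and Gata5 (11.5) overlapped at the top, ahead of Isl1 (5.2), Hand1 (4.25), Tbx20 (3.3) and Nkx2-5 (2.04), and Mef2c (1.11) and Tbx5 (1.08) overlapped at the bottom. In shCTSL at Day 4 Hand2 led with 16.7 CPM per kb, above Gata5 (11.6) with no overlap, and Hand1 (6.4) and Isl1 (6.15) overlapped.

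The question of the knockdown comparison was whether the line with less cathepsin L differed in these genes on the same day. With edgeR over all genes, 0 of the 8 were called at Day 0, Day 2 or Day 4, where 0.0386%, 0.0644% and 0.0129% of genes were. DESeq2 also called 0 on each day. At an unadjusted p under 0.05 there were 1 at Day 0 (Tbx5), 1 at Day 2 (Nkx2-5) and 2 at Day 4 (Hand2 and Nkx2-5), where 7.26%, 19.4% and 12.2% of all genes were. The Day 0 entry of Tbx5 compares 4 counts in shCTSL with 0 in shSC, a ratio whose 95% counting interval has a lower limit of 0.843. A p that misses the threshold does not show that the lines were alike.

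At Day 4 both shCTSL libraries lay above both shSC libraries in 5 of the 8 genes (Hand1, Hand2, Isl1, Tbx20 and Nkx2-5), against 30% of all genes tested, and below in 0, against 31.5%. The log2 fold changes of shCTSL against shSC were 0.72 ± 0.25 for Nkx2-5 (95% interval 0.17 to 1.28, adjusted p = 0.337), 0.59 ± 0.27 for Hand1 (adjusted p = 0.411), 0.53 ± 0.20 for Hand2 (adjusted p = 0.37) and 0.53 ± 0.25 for Tbx20 (adjusted p = 0.425). Isl1 was at 0.25 ± 0.17. Gata5 (0.01, interval -0.36 to 0.39) and Tbx5 (-0.12, interval -0.72 to 0.47) lay near 0, and Mef2c at -0.65 ± 0.34 (adjusted p = 0.453). Without shSC Day 4 replicate 1 the Mef2c value was 0.07.

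These adjusted p-values rested on the spread that all 6 groups share. Without both shCTSL Day 2 libraries, the Day 4 values hardly moved but their errors shrank. Nkx2-5 (0.72 ± 0.21, adjusted p = 0.0206) and Hand1 (0.59 ± 0.17, adjusted p = 0.021) were then called, 2 of the 8, against 5.89% of the genes tested in that fit. Hand2 and Tbx20, both at 0.55, had adjusted p of 0.0165 and 0.0133 there but did not reach the fold of 1.5. With only 1 of these libraries left out, the Day 4 value of Nkx2-5 was 0.72 without replicate 1 and 0.71 without replicate 2. That of Hand1 was 0.59 without replicate 1. In the fit without both shCTSL Day 2 libraries none of the 8 was called at Day 0 either, against 1.37% of genes. Both shCTSL Day 0 libraries lay above both shSC Day 0 libraries in 3 genes (Tbx5, Tbx20 and Mef2c), against 3520 of the 15532 genes tested. They lay below in 2 (Hand1 and Nkx2-5), against 4441. The Day 0 differences lay at low counts except in Tbx20, where shCTSL was 0.61 ± 0.28 above shSC on the log2 scale (adjusted p = 0.699). Fitted on the 4 Day 0 libraries alone, Tbx20 was called (0.63, adjusted p = 0.0179), 1 of the 8, against 2.04% of the genes tested in that fit. The 4 Day 4 libraries alone gave calls for Nkx2-5 (0.74, adjusted p = 0.0376) and Hand1 (0.61, adjusted p = 0.0201), 2 of the 8, against 4.83% of the genes tested there.

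**Figure D2:**
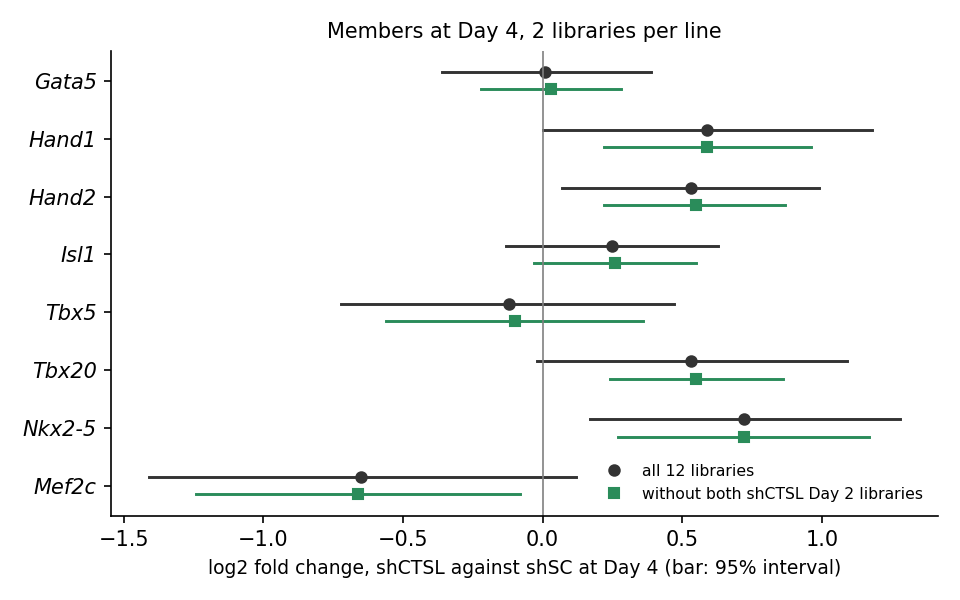
Log2 fold change of shCTSL against shSC at Day 4 (horizontal axis) for the 8 genes, with 95% intervals as bars, from all 12 libraries (circles) and without both shCTSL Day 2 libraries (squares). Nkx2-5 has the highest value, 0.72 in both fits, and the interval of Mef2c reaches 0 in the fit of all libraries only.

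At Day 2 both shCTSL libraries lay above both shSC libraries in 2 genes (Isl1 and Nkx2-5), against 22.8% of all genes, and below in 3 (Tbx5, Mef2c and Gata5), against 22.7%. Nkx2-5 was 0.60 ± 0.22 higher in shCTSL (adjusted p = 0.224), Tbx5 was at -0.66 ± 0.34 (adjusted p = 0.295) and Mef2c at -0.77 ± 0.41 (adjusted p = 0.294). The calls at this day depended on which shCTSL library was used. Without shCTSL Day 2 replicate 1, 0 of the 8 were called, against 0.604% of genes. Without replicate 2, Nkx2-5 (0.78, adjusted p = 0.00387) and Tbx5 (-1.26, adjusted p = 0.0356) were called, against 31.6% of genes. In these fits the remaining library has no replicate and is assumed to vary like the other groups.

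Whether the change between days differed between the lines was tested as a difference of log2 fold changes. None of the 8 was called for Day 2 against Day 0 or Day 4 against Day 2, where 0% of genes were in both, nor for Day 4 against Day 0, where 0.00644% were. DESeq2 also called 0 of the 8. At an unadjusted p under 0.05 there were 2 (Tbx5 and Nkx2-5), 0 and 3 (Tbx5, Hand1 and Nkx2-5), against 11%, 4.85% and 6.71% of all genes. Tbx5 had 0 counts in both shSC Day 0 libraries and 2 in each shCTSL Day 0 library. Its line differences from Day 0 rest on these few counts in every fit here, and their fitted values depend on the prior count. The entries of Tbx5 in the counts of this paragraph are therefore a description only. Without both shCTSL Day 2 libraries, again 0 were called for Day 4 against Day 0, against 1.67% of genes. Without shCTSL Day 2 replicate 1, 0 were called for Day 2 against Day 0 and for Day 4 against Day 2, against 1.89% and 3.57% of genes. Without replicate 2, 3 were called for Day 2 against Day 0 (Tbx5, Tbx20 and Nkx2-5), against 26% of genes, and 1 for Day 4 against Day 2 (Tbx20), against 14.7%.

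Among the 33 other regulators of heart and lateral plate, 31 were tested. From Day 0 to Day 4, 23 were called higher and 3 lower in shSC, with a median log2 fold change of 3.64 against 0.03 over all genes, and 22 higher and 3 lower in shCTSL, with a median of 3.27 against 0.06. Medians were the same with genes of 0 counts set at the floor. Some of the 31 were near 0 at Day 0, such as Nr2f1 and Foxc1 with 4 and 2 counts summed over the shSC libraries. Genes of this kind passed the filter through later days and had to differ from Day 0. The counts of calls and the medians over days are therefore a description only, here and in the lists that follow. Over these days 32.1% of all genes were called higher and 28.7% lower in shSC, and 32.3% and 27.6% in shCTSL. Tbx2, a T-box repressor of chamber genes, went from a mean of 0.176 CPM at Day 0 to 49.8 at Day 2 and 129 at Day 4, and Nr2f1, an orphan nuclear receptor induced by retinoic acid, from 0.145 to 21.5 and 98.7. Osr1 of intermediate and lateral mesoderm and Prrx1 of limb mesenchyme had 0 counts at Day 0 in shSC and stood at means of 15 and 5.91 CPM at Day 4, and their fitted changes depend on the prior count. Tbx3, the most abundant of the list over all libraries, was at 254, 279 and 258 CPM on the 3 days in shSC and not called. Mesp1, which marks the earliest cardiac mesoderm, and Fgf8 did not pass the count filter. None of the 31 was called between the lines on a day by edgeR or DESeq2, while 5, 6 and 6 had an unadjusted p under 0.05, as did 7.26%, 19.4% and 12.2% of all genes, shares that apply to the lists that follow as well. At Day 2, 1 was called without shCTSL Day 2 replicate 1 (Irx4), where 0.604% of all genes were, and 6 without replicate 2, where 31.6% were.

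Of 20 paralogs of the 8 genes, 14 were tested, and 11 were called higher and 2 lower in shSC over the same days (median 1.79). Gata3 rose from a mean of 2.08 CPM to 44.9 and 199, and Gata2 from 7.41 to 38.9 and 206. Both act in blood progenitors, among other cell types. The basic helix-loop-helix factors Tcf21, of epicardium, and Twist2 reached 13.6 and 10.4 CPM, from 0 counts and from a mean of 0.0381 CPM. In shCTSL 10 were called higher and 2 lower (median 1.68). None was called between the lines on a day by either tool, and 1, 1 and 2 had an unadjusted p under 0.05. At Day 2, 0 were called without shCTSL Day 2 replicate 1 and 3 of 14 without replicate 2, against 0.604% and 31.6% of all genes.

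Of 23 genes of cardiac muscle, 18 were tested, and from Day 0 to Day 4 in shSC 5 were called higher and 6 lower, with a median of 0.13, where 32.1% of all genes were called higher and 28.7% lower. In shCTSL 7 were higher and 6 lower, with a median of 0.18, where 32.3% of all genes were higher and 27.6% lower. From Day 0 to Day 2 in shSC 4 were called higher and 6 lower, where 8477 of all 15532 genes were called in either direction. From Day 2 to Day 4 in shSC it was 4 and 4, where 3689 were. Myl7 and Myl2 were called higher in the first step and lower in the second in both lines. Their means at Day 2 in shSC were 7.73 and 1.32 CPM. Tnnt2, which encodes cardiac troponin T, had 9 counts at Day 0, 3 at Day 2 and 11 at Day 4 summed over the shSC libraries, and Nppa, the atrial natriuretic peptide gene, had 1, 8 and 7. Neither passed the filter, nor did Pln, Gja5 and Csrp3. The largest changes in shSC were in Ttn, which fell by 4.15 on the log2 scale, and in Mybpc3, Hcn4 and Tnni1, which rose by 3.58, 3.57 and 2.99. Mybpc3, of the sarcomere, was at a mean of 11.9 CPM at Day 4 and the pacemaker channel Hcn4 at 2.88. Atp2a2, a calcium pump present in most cell types, was the most abundant, at 721 CPM at Day 0 and 393 at Day 4. None of the 18 was called between the lines on a day by either tool, and 1, 2 and 5 had an unadjusted p under 0.05. At Day 2, 0 were called without shCTSL Day 2 replicate 1 and 6 of 18 without replicate 2, against the same shares of all genes.

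Markers of other cell types that use these factors moved with the days, and their part in the results was not tested. Their calls from Day 0 to Day 4 stand beside the 32.1% of all genes called higher and 28.7% called lower in shSC, and 32.3% and 27.6% in shCTSL. Of 9 markers of primitive and visceral endoderm, all were tested and 8 were called higher from Day 0 to Day 4 in shSC and 9 in shCTSL. Their summed level was 8.16 and 7.43 CPM at Day 0, 154 and 170 at Day 2 and 427 and 334 at Day 4 in shSC. In shCTSL it was 9.47 and 9.69, 142 and 162, and 417 and 341. Cubn, an uptake receptor of visceral endoderm, was the most abundant over all libraries, and Ttr, absent from all 4 Day 0 libraries, reached a mean of 83.7 CPM at Day 4 in shSC. Afp rose to 39.5 CPM and Sox17 to 17.1. None of the 9 was called between the lines on a day by either tool, and 2 had an unadjusted p under 0.05 on each day. At Day 2, 0 were called without shCTSL Day 2 replicate 1 and 5 without replicate 2 (Ttr, Afp, Apoa1, Amn and Cubn, 4 higher and 1 lower), against 0.604% and 31.6% of all genes. Gata5 belongs to endoderm as well as to heart.

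Of 8 markers of endothelium and neural crest, 4 were called higher and 2 lower from Day 0 to Day 4 in each line, and the 2 lower are close to the share of all genes. Their sum was 191 and 199 CPM at Day 0, 123 and 137 at Day 2 and 240 and 222 at Day 4 in shSC, and 163 and 152, 71.9 and 80.8, and 210 and 174 in shCTSL. The endothelial genes Cdh5 and Tie1 rose from means of 0.538 and 1.01 CPM to 66.2 and 61.1 in shSC, and Sox18 from 2.98 to 20.8, while Foxd3, of neural crest and pluripotent cells, fell from 95.2 to 0.668. Pecam1, an adhesion molecule of endothelium that mESCs also express, was the most abundant over all libraries and was called lower at Day 4, from 83.5 to 45.2 CPM in shSC (log2 fold change -0.88, adjusted p = 0.000131) and with a log2 fold change of -0.79 in shCTSL. At Day 2 edgeR called none of the 8 between the lines, and 5 had an unadjusted p under 0.05, as did 19.4% of all genes. DESeq2 called 5 (Cdh5, Pecam1, Tek, Tie1 and Sox18), where it called 125 over all genes. The same 5 were called lower by edgeR without shCTSL Day 2 replicate 1, and 4 of them, all but Tie1, without replicate 2, against 0.604% and 31.6% of all genes. Mef2c is a gene of endothelium too. At Day 2 each shCTSL value of Mef2c was under each shSC value, as for 22.7% of all genes tested. Mef2c was not called by edgeR on that day (log2 fold change -0.77 ± 0.41, adjusted p = 0.294). Whether endothelial cells had a part in its level was not tested.

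Of 7 markers of mesoderm on the way to heart, 6 were tested, and 3 were called higher and 1 lower at Day 4 in shSC, and 3 higher and 2 lower in shCTSL. Their sum went from 11.6 and 8.55 CPM at Day 0 to 149 and 149 at Day 2 and 188 and 194 at Day 4 in shSC, and from 10.8 and 10 to 65.1 and 112 and to 168 and 140 in shCTSL. Kdr, the VEGF receptor of early mesoderm and endothelium, was the most abundant over all libraries, with a mean of 2.18 CPM at Day 0, 95.4 at Day 2 and 109 at Day 4 in shSC, and Pdgfra rose from 0.967 to 69.4. Kdr and Pdgfra made up most of the Day 4 sum in shSC. Eomes went from 3.8 to 18.9 and 11.1, and Mixl1, of the primitive streak, was called lower (1.03 to 0.18). Tbx6 stayed at means of 1.1, 1.28 and 1.09 CPM in shSC and was not called between days in either line. Mesp1 had 4, 2 and 2 counts on the shSC days, and T was called lower at Day 4 in shCTSL only. At Day 2 DESeq2 called Kdr between the lines, where it called 125 over all genes, and edgeR called none of the 6, with 1 at an unadjusted p under 0.05. Without shCTSL Day 2 replicate 1 edgeR called Kdr lower, and without replicate 2 Kdr and Pdgfra, against the same shares.

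Of 9 trophoblast markers, 7 were tested, and 4 were called higher and 2 lower at Day 4 in shSC, and 3 higher and 2 lower in shCTSL. Their sum was 68.1 and 68.3 CPM at Day 0, 63.6 and 60 at Day 2 and 58 and 45.2 at Day 4 in shSC, and 48.7 and 44.5, 52.4 and 63.7, and 41.9 and 43.2 in shCTSL. Tfap2c was the most abundant, and Prl3d1, of giant cells, had 0 counts in every shSC Day 0 and Day 2 library and 1 count at Day 4. In shSC Krt7 rose from a mean of 1.36 to 9.1 CPM, Gcm1 from 1.06 to 3.21, and Ascl2 was called lower. Krt7 and Ascl2 were called in the same directions in shCTSL, where Gcm1 went from 1.15 to 1.31 CPM and was not called (log2 fold change 0.20, adjusted p = 0.655). Between the lines neither tool called any of the 7, and 1, 0 and 2 had an unadjusted p under 0.05. With shCTSL Day 2 replicate 1 left out 0 of 8 tested were called at Day 2, and with replicate 2 left out 2 (Cdx2 and Tfap2c), against 0.604% and 31.6% of all genes. These values stand beside Hand1, which is also a factor of giant cells.

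Isl1 and Hand2 are also expressed in motor and autonomic neurons. Mnx1, a homeodomain factor of motor neurons, was at a mean of 0.193 CPM at Day 0, 6.31 at Day 2 and 3.29 at Day 4 in shSC, and was called higher at Day 4 than at Day 0 (log2 fold change 3.97 ± 0.40, adjusted p = 1.05e-05). In shCTSL its means were 0.456, 5.38 and 3.33 CPM. Dbh, the enzyme of noradrenergic neurons, had 0 counts in both Day 0 libraries of each line, and Chat, of cholinergic neurons, had 3 counts at Day 4 in shSC. The part of such cells in the results was not tested.

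All 7 markers of undifferentiated mESCs were called lower from Day 0 to Day 4 in both lines, where 28.7% of all genes in shSC and 27.6% in shCTSL were. Their sum fell from 5629 and 5810 CPM at Day 0 to 794 and 793 at Day 2 and 336 and 292 at Day 4 in shSC, and from 5372 and 5293 to 858 and 733 and to 259 and 305 in shCTSL. Pou5f1 was the most abundant over all libraries, and none of the 7 was at 0 counts in any library. Tdgf1, Zfp42 and Esrrb had the largest changes beside it, falling by 6.51, 4.87 and 4.24 on the log2 scale in shSC. Neither tool called a marker between the lines on a day, and 0, 1 and 2 had an unadjusted p under 0.05. At Day 2, 0 were called with shCTSL Day 2 replicate 1 left out and 2 (Pou5f1 and Esrrb) with replicate 2 left out, against 0.604% and 31.6% of all genes.

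Over the 12 libraries, log2(CPM + 0.5) of each gene was compared with that of 13769 other genes of at least 1 CPM on average. The libraries fall into 3 days, so the coefficients mostly compare the order of the days, and they are given as descriptions. Gata5 was nearest to Gata2 (Pearson r = 0.997, n = 12), Matn2 and Col5a2, Hand2 to Ist1 (0.997), Tmem215 and Smad6, an inhibitor of BMP signaling, and Isl1 to Clstn2 (0.993), Tbx18 of the venous pole and Rab27b. Tbx5 was nearest to Unc5c (0.993), Angpt1 and Tmem255a, and Mef2c to Asah1 (0.993), Arhgap31 and Pclo. Hand1 had Palld (0.984), Sprr1a and Cpne8, Nkx2-5 had Gcgr (0.990), Akr1c13 and Parp10, and Tbx20 had B3gnt3 (0.954), Lrrc19 and 4931406C07Rik. None of the 8 was among the nearest genes of another. Between them r was 0.98 for Tbx5 with Gata5 and 0.97 for Hand2 with Gata5, and -0.19 for Tbx20 with Nkx2-5.

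Promoters of 6 of the 8 genes were read from RefSeq (GRCm38), and those of Hand1 and Tbx5 were not analysed here. The 250 bases before the annotated start were searched on both strands for AGGTCA as part of the nuclear receptor element, GATAA for GATA factors, CANNTG as the E-box, GGTGT for T-box factors, AAGTG for NK2 factors and TATAA as the TATA box. Of 32851 RefSeq promoters, 14% held AGGTCA, 22.6% GATAA, 66.2% CANNTG, 36.2% GGTGT, 40.7% AAGTG and 22.8% TATAA. The windows of Hand2 and Gata5 are shown because these genes had the highest ratios of Day 4 to Day 0 among the 6, and that of Nkx2-5 because it alone turned down after Day 2. Capitals mark every match of the 6 motifs. In Hand2 they are 2 E-boxes, the second of which overlaps AAGTG on the other strand, and 2 copies of GATAA, 1 on each strand. In Nkx2-5 and in Gata5 they are 1 E-box each. The windows are chr8:57320733-57320982 on the plus strand for Hand2, chr2:180334680-180334929 on the minus strand for Gata5 and chr17:26841566-26841815 on the minus strand for Nkx2-5, each written 5′ to 3′ along the gene.
Hand2: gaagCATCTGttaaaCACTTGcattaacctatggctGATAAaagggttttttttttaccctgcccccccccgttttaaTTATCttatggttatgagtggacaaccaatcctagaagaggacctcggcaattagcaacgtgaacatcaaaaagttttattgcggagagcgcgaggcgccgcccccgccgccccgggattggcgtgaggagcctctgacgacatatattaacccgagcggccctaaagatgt
Gata5: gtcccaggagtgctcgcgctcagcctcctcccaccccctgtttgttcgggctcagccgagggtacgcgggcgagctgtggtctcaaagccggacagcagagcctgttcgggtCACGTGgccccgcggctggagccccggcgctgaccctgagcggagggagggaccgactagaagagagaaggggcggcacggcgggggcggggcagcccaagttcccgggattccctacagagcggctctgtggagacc
Nkx2-5: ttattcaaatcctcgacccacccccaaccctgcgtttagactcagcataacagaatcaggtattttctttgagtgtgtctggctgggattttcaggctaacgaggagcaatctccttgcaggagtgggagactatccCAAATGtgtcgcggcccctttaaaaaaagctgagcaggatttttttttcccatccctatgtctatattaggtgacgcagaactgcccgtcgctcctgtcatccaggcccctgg
AGGTCA was found before 2 of the 3 annotated starts of Mef2c and before no other start of the 6 genes, and Tbx20 held none of the 6 motifs. A match is a description of the letters and not a site.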

How the data were processed

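The authors aligned reads of directional polyA libraries to mm9 with STAR 2.3.0e, removed low-quality, mitochondrial and non-chromosomal alignments with SAMtools 0.1.19 and counted reads per gene with featureCounts 1.6.2. The deposited table holds these raw counts, and no source used here gives the strand setting. Tests used edgeR 4.0.16 (R 4.3.3). Genes passing filterByExpr (minimum count 10) were scaled by TMM and fitted over all 12 libraries in 6 groups with glmQLFit and glmQLFTest, with Benjamini-Hochberg adjustment over 15532 genes. The standard error is the absolute log2 fold change divided by the square root of F. Near-zero counts were compared as summed counts scaled by library total and TMM factor, with exact conditional binomial intervals (95%). Alternatives were other normalization, filters and thresholds, DESeq2 1.42.0, a replicate block and the omission of libraries. The 8 genes and all lists were chosen with earlier results of these data known. From each list the text names the 4 called genes with the largest fitted Day 4 change in shSC, the most abundant gene and any gene called between the lines; other names were chosen after their values were seen. Some results of the neuron markers are not reported here. Gene positions are from GENCODE M1 (mm9).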

Additional observations from a re-analysis of the deposited data

How the results depend on the processing

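Over other normalization, filters, thresholds, DESeq2, a replicate block and left-out libraries, 239 of 247 counts of the 8 genes called stayed within 1.5 times the reported count. Of their log2 fold changes, 1895 of 1968 kept their direction and side of the threshold. Of the others, 19 lost and 14 gained a call and 40 changed sign, none of these called, and the cause was not tested. Without TMM factors, all 14 counting ratios compared stayed within their counting intervals. With an offset of 1, the nearest gene stayed first except for Hand2, where it had rank 4, and for Isl1 and Tbx5, where it had rank 3. With only the libraries compared, 1 of the 8 was called between lines at Day 0 and 2 at Day 4, where 269 and 711 of all genes were, and without both shCTSL Day 2 libraries 2 at Day 4, where 909 were. Leaving out 1 library at a time, where a lone sample is assumed to vary like the other groups, gave 0 to 2 at Day 2, 0 to 2 at Day 4, and for line differences 0 to 3 (Day 2 against Day 0) and 0 to 1 (Day 4 against Day 2). For day comparisons it gave 6 to 8 for Day 4 against Day 2 in both lines and 5 to 7 for Day 2 against Day 0 in shCTSL. A log2 threshold of 1.5 ended the calls of Nkx2-5 from Day 2 to Day 4 and of Tbx20 from Day 0 to Day 4 in both lines, and of Isl1 and Tbx20 from Day 0 to Day 2 in shCTSL. Sign changed for Gata5 between lines at Day 4 with no filter (-0.02) and for Hand2 in the line difference of Day 2 against Day 0 with DESeq2 (-0.05) and RLE scaling (-0.03).

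With 1 library left out, log2 values spanned 0 as follows. Hand1 from Day 0 to Day 2 had a lowest value of -0.99 and a highest of 0.05 in shSC, against -0.28 and 0.88 in shCTSL. Between lines at Day 0, Hand2 ran from -0.20 to 1.0, Isl1 from -0.15 to 0.84 and Gata5 from -4.07 to 0.03. At Day 2 Hand1 ran from -0.83 to 0.51 and Tbx20 from -0.61 to 0.35. At Day 4 Tbx5 ran from -0.37 to 0.13, Mef2c from -1.09 to 0.07 and Gata5 from -0.14 to 0.18. Line differences of Day 2 against Day 0 ran from -0.66 to 0.54 for Hand2, -0.64 to 0.34 for Isl1 and -0.15 to 3.95 for Gata5. Those of Day 4 against Day 2 ran from -0.12 to 0.44 for Hand2, -0.11 to 0.18 for Isl1, -0.07 to 0.38 for Nkx2-5, -0.31 to 0.85 for Mef2c and -0.02 to 0.30 for Gata5. Those of Day 4 against Day 0 ran from -0.47 to 0.74 for Hand2, -0.59 to 0.39 for Isl1, -0.31 to 0.13 for Tbx20 and -0.02 to 4.08 for Gata5.

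Over all genes, the calls between lines ranged from 0 to 269 at Day 0 (6 as reported, 48 by DESeq2), 0 to 5012 at Day 2 (10 and 125) and 0 to 926 at Day 4 (2 and 132). Line differences ranged from 0 to 4124 (0 and 24), 0 to 2323 (0 and 11) and 0 to 268 (1 and 28). In shSC the day comparisons ranged from 3845 to 9883 (8477), 1462 to 4668 (3689) and 4778 to 10671 (9435), and in shCTSL from 3981 to 9989 (8627), 1201 to 6213 (3630) and 4697 to 10549 (9296), in the order Day 2 against Day 0, Day 4 against Day 2 and Day 4 against Day 0. As to pairing, libraries of equal number share only the number: deviations correlated over 0.1 in 2 of 15 pairs of groups (r from -0.465 to 0.257). With the replicate block the counts of the 8 genes called were 6, 8, 8, 7, 8 and 8 over days and 0 between lines, as without it, and over all genes the calls between lines were 4, 0 and 1. Low counts at Day 0 limit the fold changes from that day.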
